A study of Mus musculus with 166 samples.

Results

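The microRNAs from Mir379 to Mir410 on mouse chromosome 12 form one dense run of hairpin genes in the imprinted Dlk1-Dio3 domain. This run is commonly called the Mir379 to Mir410 cluster. Mir3072, which lies beyond Mir410 (38.8 against 34.7 kb from the start of Mir379), was listed with them and is counted as a member here. Members were taken from a list of 39 microRNAs by name and position, and kept where they had a row in the cerebellar count table and a mean count of at least 5 per library. Of the 39, 33 had a row and 30 met the minimum, out of 1626 features in the table, and all 30 passed the filter on low counts. Mir494 (mean count 7.06), Mir1193 (10.1) and Mir3072 (11.6) lay just inside the limit and Mir1197 (4.51) just outside, with Mir654 and Mir453 near 0 (0.00602 each). Mir299a, Mir380, Mir376a, Mir376b, Mir668 and Mir409 were not analysed here.

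Small RNA had been sequenced from the cerebellum of 166 mice on a C57BL/6 background, aged 2, 6 or 10 months. Mice of 6 lines (Q20, Q80, Q92, Q111, Q140, Q175) were heterozygous, with 1 wild-type Htt allele and 1 knock-in allele holding human HTT exon 1 with the CAG repeat length (Q) of the name. WT mice carried no knock-in allele and were littermates of the Q20 line, and WT and Q20 served as controls. There were 8 libraries, male and female, for each line at each age, but 7 for Q140 and for Q111 at 10 months. Each length comes from a line of its own, and Q175 arose by expansion within the Q140 line, so repeat length and other differences between the lines cannot be told apart. Libraries whose overall profile stood apart (9 of 166, 8 of them at 2 months) were left out, as the study's own rule for outliers does, which left 157. Total counts ranged from 3094703 to 6188935 per library. By the leading number of the library names, WT and Q175 at 6 months formed a library series of their own and all other libraries a second one. At 6 months Q175 was therefore read against WT only, and the other lines against Q20 only.

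Genes of the domain are expressed from one parental chromosome only: Dlk1, Rtl1 and Dio3 from the paternal copy, and the noncoding RNAs with the embedded microRNAs from the maternal copy. A long nuclear transcript is cut by Drosha into hairpins, Dicer cuts each hairpin into a short duplex, and 1 strand is loaded into Argonaute. Its bases 2 to 8, the seed, pair with target messages and lower their output. The cluster is known for its high expression in brain. In rat neurons Mef2 drives its transcription with activity, and Mir134, Mir381 and Mir329 are needed there for activity-dependent growth of dendrites.

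The 30 members spanned 38.9 kb, at chr12:109709060-109747960 (GRCm38). Of these, 19, from Mir379 to Mir544, lay in no annotated host gene, and 11, from Mir382 to Mir3072, lay within the annotated noncoding gene Mirg. All but Mir299b were on the plus strand. Mir299b lies on the minus strand, opposite the listed Mir299a. The strand setting of the counting is not given in the sources used here, so reads of one and the other cannot be told apart.

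RefSeq (GRCm38.p6) held 56 mature sequences for the 30 members, with 53 different seeds. There were 3 seeds that a pair of members shared. The first is the seed of Mir379 and Mir1193, the former a regulator of lipid release in mouse liver, and the second is shared by the other arms of Mir379 and Mir411. These sequences are shown because the members of a pair share a seed, and the values of the members are given further on. Letters run from 5′ to 3′, with the seed in capitals.
mmu-miR-379-5p: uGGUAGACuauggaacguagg
mmu-miR-1193-5p: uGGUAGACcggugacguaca
mmu-miR-379-3p: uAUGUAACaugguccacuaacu
mmu-miR-411-3p: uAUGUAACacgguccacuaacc
mmu-miR-494-5p: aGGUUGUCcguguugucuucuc
mmu-miR-410-5p: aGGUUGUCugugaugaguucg

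The next sequences belong to the members with the most counts or the largest changes in Q175, and to Mir134, which did not follow them. The 3p arms of Mir300 and Mir381 have different seeds but share a run of 16 bases. The counts are per hairpin, so they do not say which arm was sequenced.
mmu-miR-381-3p: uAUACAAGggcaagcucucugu
mmu-miR-300-3p: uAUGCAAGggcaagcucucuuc
mmu-miR-411-5p: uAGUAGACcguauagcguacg
mmu-miR-410-3p: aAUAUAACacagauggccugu
mmu-miR-541-5p: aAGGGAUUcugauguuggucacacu
mmu-miR-487b-5p: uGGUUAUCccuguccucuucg
mmu-miR-154-5p: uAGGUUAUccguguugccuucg
mmu-miR-496a-3p: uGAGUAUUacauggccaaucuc
mmu-miR-134-5p: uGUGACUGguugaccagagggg

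Members differed 3100-fold in mean count, from 7.06 for Mir494 to 21890 for Mir381. Mir381, Mir411 (20030), Mir410 (12726), Mir300 (11545) and Mir541 (7299) together held 86.3% of the members' counts. Mean counts of the others had their largest values at Mir369 (1864), Mir487b (1816) and Mir376c (1667), and 7 members stayed under 100. Mean level and position along the chromosome were almost unrelated (Spearman rho of 0.05 over 30 members, whose values come from the same libraries). Neighbours could lie far apart: Mir412, with a mean count of 16.6, sits less than 1 kb from Mir410. Of all members only Mir411 and Mir758 shared a run of at least 18 bases with another annotated hairpin in the table, each with the other. The run was sought in whole hairpins, not in the mature sequences, and whether their counts hold reads of both was not tested.

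At 6 and 10 months most members were higher in Q175 than in controls. The question of this comparison is how microRNA levels change with a long Htt repeat. At 10 months 18 of the 30 members rose and none fell (edgeR quasi-likelihood test, false discovery rate (FDR) under 0.05 after Benjamini-Hochberg adjustment over 454 microRNAs), against 12.8% of all microRNAs tested that were called higher. Of the 454 tested, 59 were called lower at 10 months. The members' median log2 fold change was 0.27, against -0.06 over all tested. At 6 months, in other mice and against WT, 17 rose and none fell, with 10.6% of all tested called higher. Of the 454 tested, 32 were called lower at 6 months. The members' median log2 fold change was 0.21, against -0.00 over all tested. There were 16 members that rose at both ages, while Mir666 and Mir377 passed at 10 months only, and Mir543 passed at 6 months only.

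Mir496a, which in mouse limits N-cadherin together with Mir369 and Mir543, had the largest mean rise among the 16 members called at both ages. At 10 months its level in the 8 Q175 libraries ran from 59.3 to 76.2 counts per 1000000 counts of the library (CPM) with a median of 69.8, and in the 15 controls from 39.0 to 58.4 with a median of 47.8. No Q175 library overlapped with a control. The fold change was 1.42, or 0.51 ± 0.07 (SE) on the log2 scale (FDR = 2.07e-07). At 6 months Q175 ran from 49.4 to 69.6 CPM (median 58.8) and WT from 39.0 to 53.9 (median 48.2), which overlap, and the log2 fold change was 0.32 ± 0.08 (FDR = 0.00132).

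Mir154, the namesake of a group of related hairpins in the cluster, was higher by 0.46 ± 0.06 at 10 months (FDR = 3.61e-09) and by 0.30 ± 0.06 at 6 months (FDR = 0.000523), both on the log2 scale. Its level at 10 months was 97.6 to 128 CPM in Q175 (median 106) and 64.5 to 89.3 in controls (median 79.9), again without overlap. Mir541 rose by 0.42 ± 0.06 at 10 months (FDR = 7.16e-08) and 0.33 ± 0.05 at 6 months (FDR = 2.69e-07). Its 10-month levels were 1877 to 2371 CPM in Q175 (median 2099) and 1289 to 1910 in controls (median 1533), and the groups touched at the ends only.

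Mir410, the third member by counts, rose by 0.42 ± 0.07 at 10 months (FDR = 8.27e-07), from a control median of 2906 CPM (2401 to 3492) to 3797 in Q175 (3464 to 4433). The lowest Q175 library lay just under the highest control. Mir381, the most counted member and one of those needed for dendrite growth in rat neurons, rose by 0.35 ± 0.06 at 10 months (FDR = 1.58e-06) and 0.23 ± 0.07 at 6 months (FDR = 0.0101). Its libraries spread widely, from 4255 to 5859 CPM in controls and from 5375 to 7490 in Q175, and overlapped. Mir411 ran from 5140 to 6355 CPM in Q175 and from 4107 to 5079 in controls at 10 months, with no overlap and a log2 fold change of 0.31 ± 0.04 (FDR = 2.19e-09). Mir300 had the smallest standard error of all members at 10 months. It rose by 0.22 ± 0.02 (FDR = 1.95e-10), from 2370 to 2850 CPM in controls to 2969 to 3275 in Q175.

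The other members among the 10 largest were Mir487b, Mir667, Mir376c and Mir329. Mir487b rose by 0.32 ± 0.04 at 10 months and 0.35 ± 0.04 at 6 months, where it had the lowest FDR of all members (5.14e-09). Its 6-month libraries, 486 to 593 CPM in Q175 and 377 to 458 in WT, did not overlap. Mir667 rose by 0.35 ± 0.04 at 10 months (FDR = 7.96e-10) and 0.19 ± 0.06 at 6 months (FDR = 0.0185). Mir329, also needed for dendrite growth in rat neurons, rose by 0.30 ± 0.04 and 0.23 ± 0.05. Mir376c belongs to a group whose transcripts are edited by ADAR enzymes in human and mouse brain. It rose by 0.32 ± 0.04 at 10 months and 0.21 ± 0.05 at 6 months, but a 6-month fit without the library series term gave 0.08 and no call. The first member along the chromosome, Mir379, rose by 0.22 ± 0.05 and 0.26 ± 0.05 at 10 and 6 months.

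**Figure D1:**
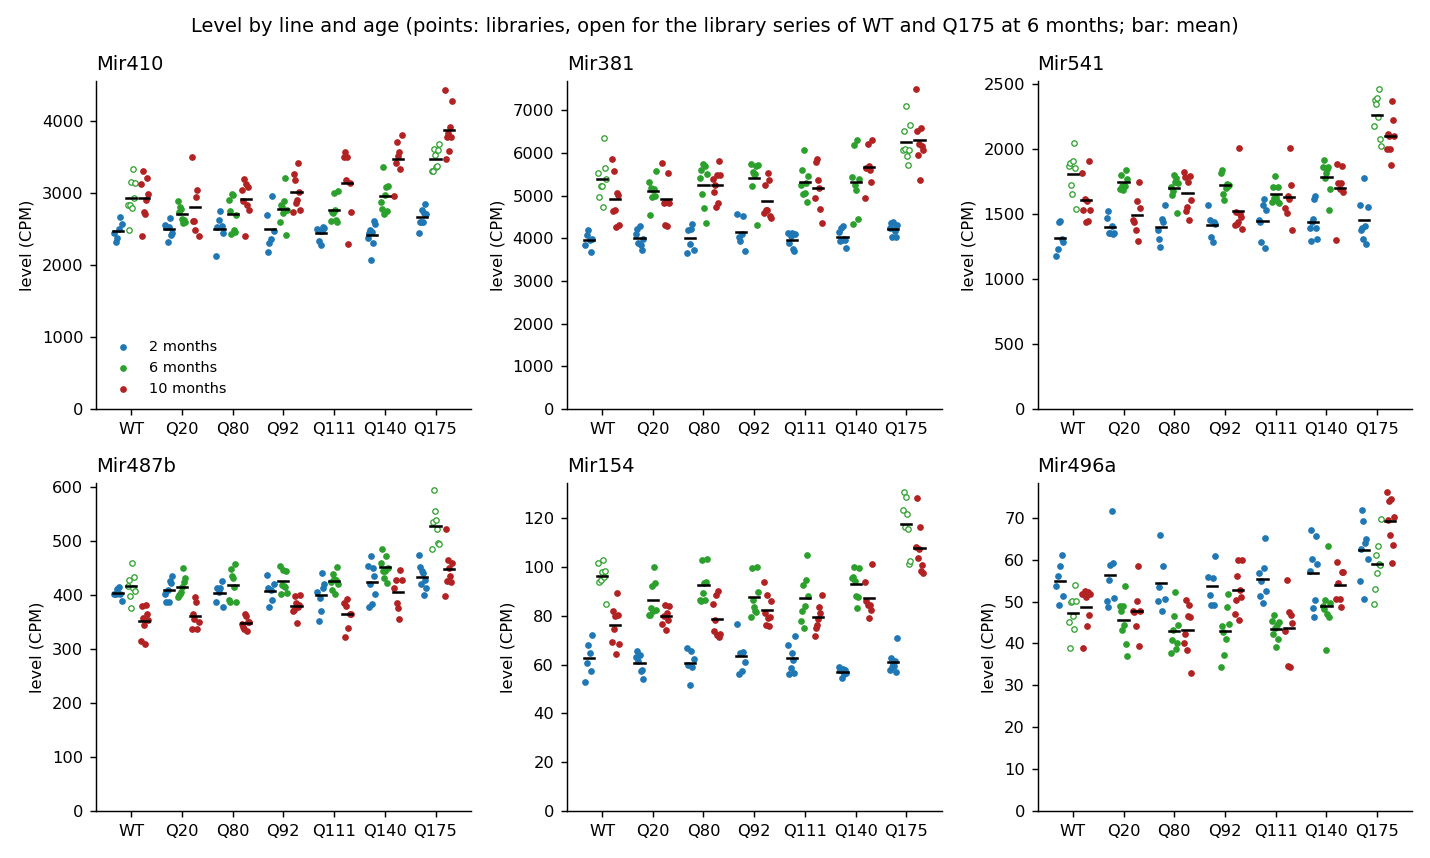
Level in CPM (vertical axis, from 0) of Mir410, Mir381, Mir541, Mir487b, Mir154 and Mir496a in each of the 7 lines, with 1 point a library, colour for age, open points for the separate library series of WT and Q175 at 6 months and a bar for the mean. In Mir154 and Mir496a all Q175 libraries of 10 months lie above all WT and Q20 libraries of that age, while at 2 months the lines overlap.

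All Q175 libraries lay above all 15 controls at 10 months for 8 members: Mir411, Mir667, Mir376c, Mir300, Mir487b, Mir154, Mir496a and Mir369. Over all tested microRNAs this held for 3.08%. At 6 months, 8 Q175 against 8 WT libraries, it held for 5 members (Mir379, Mir411, Mir487b, Mir485 and Mir369) and for 2.2% of all tested. Mir411, Mir487b and Mir369 were in both groups. For Mir369 at 6 months, Q175 (410 to 478 CPM) lay above WT but inside the range of Q20 (407 to 480 CPM). Q20 was of the other library series at that age, so line and series cannot be told apart there. Leaving out any 1 of the 23 libraries behind the 10-month comparison gave 18 or 19 members higher, and any 1 of the 16 behind the 6-month comparison 16 or 17. Mir1193 was the member gained. Mir323 was the member lost, without Q175 F3, M3 or M4 or WT F2 or M2 (F, female; M, male).

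Mir134, which limits dendritic spine size in rat hippocampal neurons, was the only member with a negative fold change at both ages. Its log2 fold change was -0.06 ± 0.06 at 6 months and -0.07 ± 0.07 at 10 months, neither past the threshold. At 10 months its level was 61.5 to 74.6 CPM in Q175 and 58.6 to 82.6 in controls, the former inside the latter. The 95% interval of the difference at 10 months, taken as 1.96 SE, ran from -0.20 to 0.06. Mir382 (interval -0.04 to 0.17) and Mir758 (-0.24 to 0.10) did not pass either. Mir134 and Mir382 are neighbours, and Mir485, the next member, rose at both ages, by 0.28 ± 0.04 at 10 and 0.24 ± 0.05 at 6 months. Mir485 is a regulator of synapse strength in rat neurons.

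No member of low depth passed the test of Q175 against controls at 6 or 10 months. None of the 7 members with a mean count under 100 was called in Q175 at either age, and their standard errors at 10 months were 0.10 to 0.28 (log2). Of the 23 members with at least 100, 18 rose at 10 months and 17 at 6 months, with standard errors at 10 months of 0.02 to 0.09. Over all 454 microRNAs tested, whatever their depth, 12.8% were called higher at 10 months and 10.6% at 6 months. Mir1193 had the largest fold change of all members at 10 months, 0.61 ± 0.26, and missed the threshold (FDR = 0.0784). Its 95% interval ran from 0.11 to 1.11. That of Mir544 ran from 0.02 to 0.40, and those of Mir494, Mir679, Mir539, Mir412 and Mir3072 included 0.

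**Figure D2:**
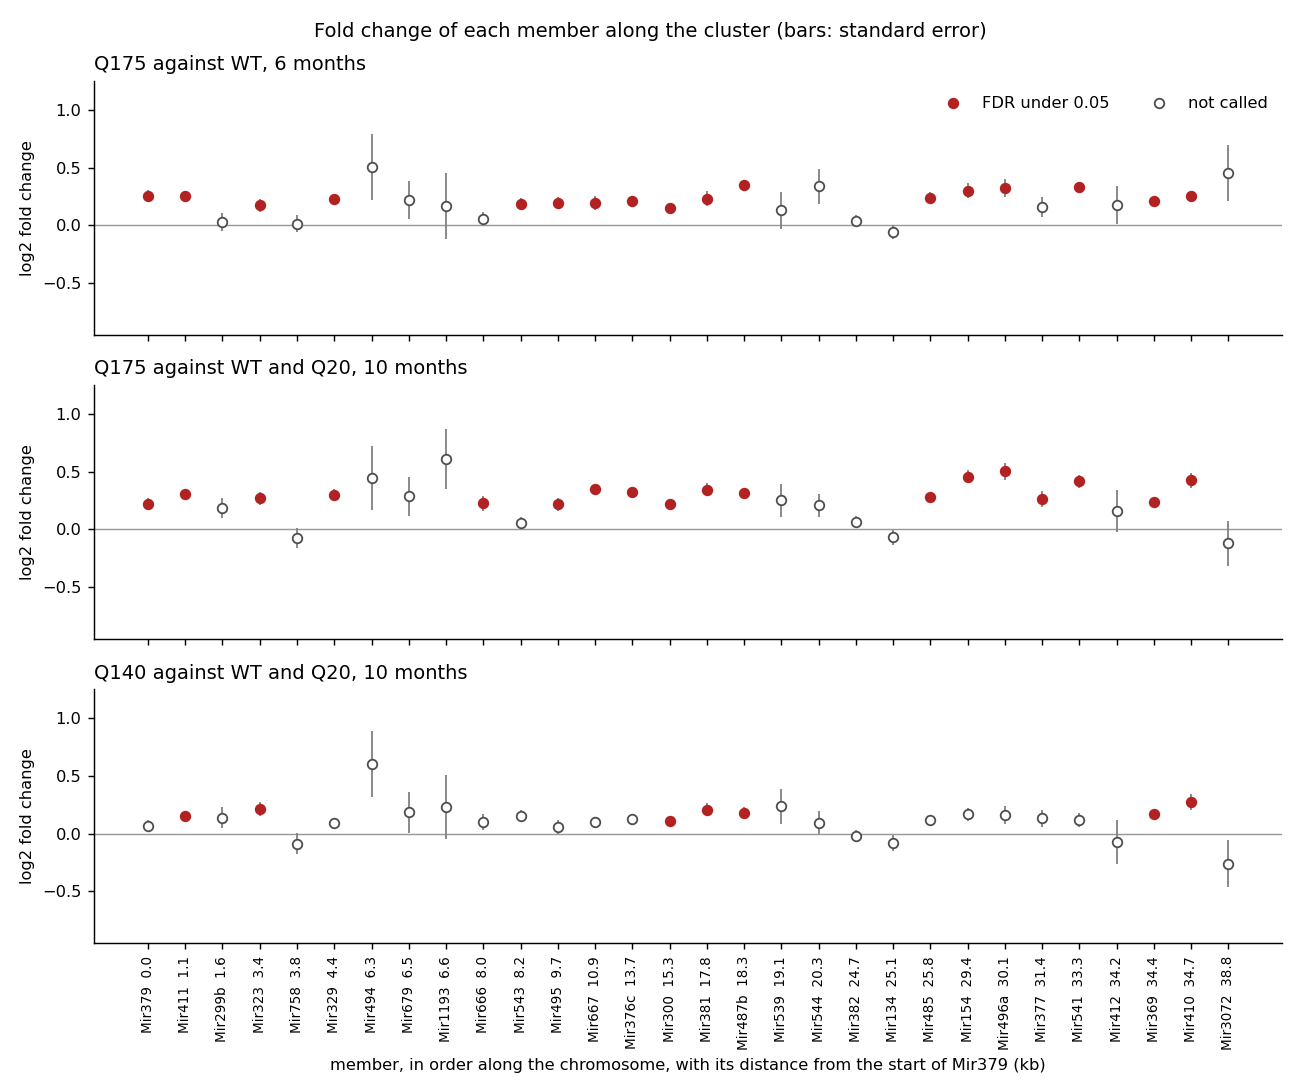
Log2 fold change with its standard error (vertical axis) of the 30 members in order along the chromosome, each named with its distance from the start of Mir379 in kb, for Q175 at 6 months, Q175 at 10 months and Q140 at 10 months. Filled points passed an FDR of 0.05, and in Q175 they run from Mir379 to Mir410 with gaps at Mir299b, at Mir758, at Mir382 and Mir134, and at the members of low count, which passed at neither age.

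Calls were spread along the cluster. Before Mirg 11 of 19 members rose at 10 months (median log2 fold change 0.27), and within Mirg 7 of 11 (median 0.26). At 6 months the counts were 11 of 19 and 6 of 11. Of all microRNAs tested, 12.8% were called higher at 10 months and 10.6% at 6 months. Fold change at 10 months and position had a Spearman rho of 0.02 over the 30 members and of 0.42 over the 23 deeper ones, whose values share the same libraries. Over these 23, the log2 fold changes of the 2 ages, from different mice and controls, had a Pearson r of 0.83, and over all 30 of 0.40.

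Summed over the 30 members, the cluster took 1.92% ± 0.09 (SD, n = 8) of a library's counts in WT and 1.94% ± 0.11 (n = 7) in Q20 at 10 months. In Q140 the share was 2.14% ± 0.12 (n = 7) and in Q175 2.46% ± 0.13 (n = 8). The Q175 libraries ran from 2.36% to 2.76% and all lay above the highest control, 2.13%. The sum of the neuronal microRNA list (6 of 10 listed genes of Mir124, Mir9, Mir128 and Mir138 in the table, none at 0) ran at 10 months from 57305 to 64518 CPM in Q175 (median 60495) and from 59650 to 64518 in Q140 (median 62521), against 50522 to 61653 in WT (median 56784) and 53652 to 59482 in Q20 (median 54937). At 6 months it ran from 49566 to 55215 in Q175 (median 53322) and from 47168 to 54250 in WT (median 48930). The oligodendrocyte list, Mir219a and Mir338 (3 of 3), ran at 10 months from 3573 to 4688 in Q175, 3610 to 4578 in Q140, 3951 to 5109 in WT and 4221 to 5751 in Q20, and at 6 months from 2957 to 3383 in Q175 and 2931 to 4006 in WT. The muscle list (4 of 5) ran at 6 months from 230 to 281 in Q175 (median 249) and from 279 to 390 in WT (median 335). At 10 months its medians were 227 in Q175, 234 in Q140, 279 in WT and 322 in Q20, with overlapping ranges. The microglia and immune list (2 of 4) had 10-month medians of 18.2 in Q175, 14.35 in Q140, 14.7 in WT and 14.6 in Q20, with ranges that overlapped. At 6 months its median was 13.2 in Q175 and in WT. The choroid plexus list (7 of 7) ran at 10 months from 16760 to 22886 in Q175, 16638 to 22996 in Q140, 16113 to 25536 in WT and 17466 to 26665 in Q20. The part of these lists in the Q175 and Q140 results was not tested, and in bulk tissue fewer cells of a type and less RNA per cell cannot be told apart.

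In Q140 a smaller number of members rose, at 10 months only. These were Mir410, Mir323, Mir381, Mir487b, Mir369, Mir411 and Mir300, with 3.96% of all tested microRNAs called higher. The largest fold change among them was that of Mir410, 0.27 ± 0.07 on the log2 scale (FDR = 0.0186). Its level was 2961 to 3800 CPM in Q140 (median 3513), between the control and Q175 medians given above and overlapping with both groups. Mir300 had the lowest FDR (0.00972) at 0.11 ± 0.02. Mir369, which binds AU-rich elements of the TNF message in human cells, rose by 0.17 ± 0.04 (FDR = 0.0186), from 314 to 427 CPM over WT and Q20 to 426 to 468 in Q140.

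These 7 calls were sensitive to the libraries and the fit used. Without the Q140 library M3 none of them passed, although the log2 fold changes hardly moved (Mir410 0.28, Mir381 0.21, Mir323 0.18 and Mir411 0.15), and 6 of the 7 then had an FDR of 0.0515. With Q140 and the controls alone in the fit, an alternative chosen after seeing the data, the count was 0 as well. At 6 months no Q140 member passed the edgeR test, with 4 of 30 at an unadjusted p under 0.05 (38 of all 454 tested). Combining both ages (Stouffer sum of signed Z) called 7 members, Mir667 in place of Mir381, with 4.63% of all tested called higher.

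Q80, Q92 and Q111 gave no called member by edgeR at any age. An unadjusted p under 0.05 was found for 0 to 2 members of 30 in each, and for 13 to 33 of all 454 tested. DESeq2 called 7 members over these lines and Q140 together, as edgeR did. No other microRNA of the 454 was called in these lines by edgeR either. At 10 months the members' median log2 fold change was -0.00 in Q80, 0.03 in Q92, 0.04 in Q111 and 0.13 in Q140. At 2 and 10 months these lines share their controls with Q175. With Q as a number, 17 members rose at 6 months (10.4% of all tested) and 18 at 10 months (12.8%). Among these 18 the largest 10-month slopes were those of Mir496a (0.24 ± 0.05 log2 per 100 CAG), Mir410 (0.24 ± 0.04) and Mir154 (0.23 ± 0.04). With the Q175 libraries left out and both ages combined, 5 members rose with Q, against 3.08% of all tested: Mir487b, Mir323, Mir410, Mir369 and Mir300. All 5 were among the members called in Q140 at 10 months, where no call held without library M3. How far these slopes rest on Q140 alone was not tested. At either age alone no member passed without Q175 (lowest FDR 0.437 at 6 months and 0.109 at 10 months, edgeR). At 6 months WT was then alone in its library series and carried no weight on the slope.

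**Figure D3:**
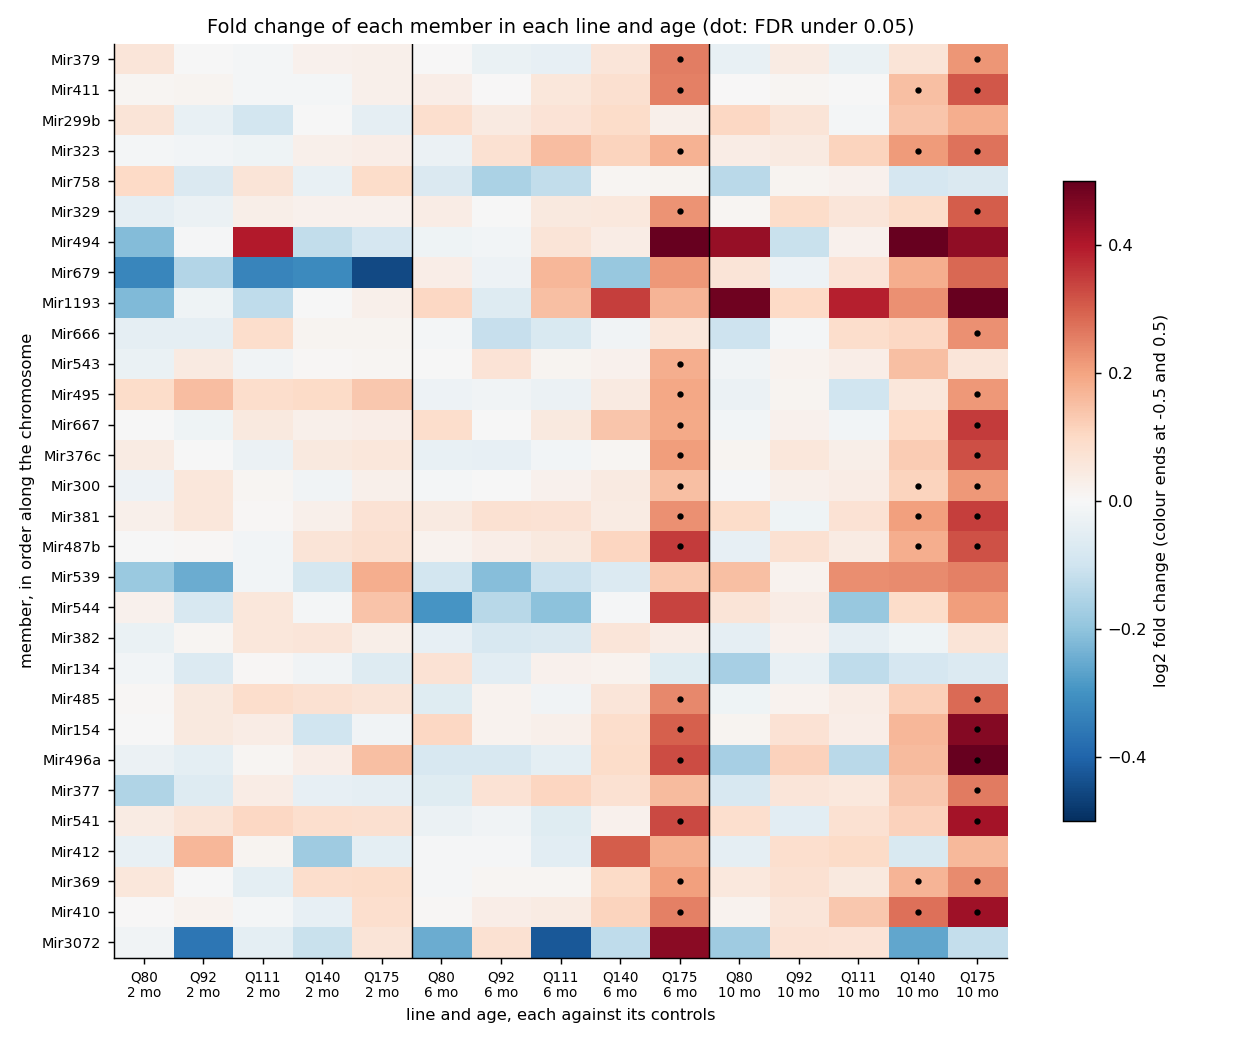
Log2 fold change (colour, cut at -0.5 and 0.5) of the 30 members (rows, in order along the chromosome) in each line and age (columns), against WT and Q20 at 2 and 10 months and, at 6 months, against WT for Q175 and Q20 for the others. Dots mark an FDR under 0.05 and stand in 17 rows for Q175 at 6 months, 18 at 10 months and 7 for Q140 at 10 months.

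Compared directly with Q140 at 10 months, Q175 was higher for 9 members, against 6.61% of all tested. These were Mir667 (0.25 ± 0.05, FDR = 0.000176), Mir154 (0.29 ± 0.07), Mir541 (0.30 ± 0.07), Mir496a (0.35 ± 0.09), Mir329, Mir376c, Mir300, Mir411 and Mir485. Of the 7 members called in Q140 against controls, Mir411 and Mir300 passed in this comparison and the other 5 did not.

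At 2 months no member was called in Q175 by edgeR or by DESeq2, against 0.22% of all tested (edgeR). By edgeR 5 of 30 members had an unadjusted p under 0.05, as did 30 of all 454 tested. The same counts held at 2 months for Q as a number. Over the members the log2 fold change had a median of 0.03. It was above 0 in 23 of the 30 members, whose values come from the same libraries, and in 227 of all 454 tested. The summed share of the members at 2 months was 1.72% ± 0.05 (SD, n = 8) in Q175. In WT it was 1.62% ± 0.06 (n = 6) and in Q20 1.64% ± 0.05 (n = 7), with overlapping ranges. The difference between ages was tested itself: the Q175 effect at 10 months exceeded that at 2 months for 16 members and fell below it for none, with 7.49% of all tested called higher. Mir154 showed it most clearly by FDR. Its 2-month level was 56.8 to 70.9 CPM in Q175 (median 59.9) and 53.0 to 72.0 in controls (median 61.6), 1 range inside the other. The Q175 effect then differed by 0.48 ± 0.08 on the log2 scale between 10 and 2 months (FDR = 1.05e-06). The lowest of the 16 differences was that of Mir300, 0.19 ± 0.04. No member's Q175 effect differed between 10 and 6 months by edgeR or DESeq2. By edgeR 4 of 30 had an unadjusted p under 0.05, as did 30 of all 454 tested.

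In control mice members changed with age in both directions, as did the tested microRNAs as a whole. Between 2 and 10 months 8 rose (24% of all tested did) and 10 fell (24.2% of all tested). With WT alone as control 9 members were called in place of 18. The libraries of 2 and of 10 months had run on different sequencing lanes, so age and lane cannot be told apart here. Mir154 (0.34 ± 0.05 on the log2 scale), Mir381 (0.31 ± 0.05), Mir300 (0.22 ± 0.03), Mir410 (0.20 ± 0.05) and Mir541 (0.19 ± 0.05) had the largest rises. Mir758, Mir134 and Mir376c rose as well. The largest falls were those of Mir1193 (-1.48 ± 0.19), Mir494 (-0.85 ± 0.23), Mir679 (-0.36 ± 0.14), Mir412 (-0.35 ± 0.14) and Mir377 (-0.25 ± 0.06).

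Mir1193 fell from 2.09 to 5.63 CPM in the 13 controls of 2 months (median 3.80) to 0.177 to 2.50 in the 15 of 10 months (median 1.32). Mir379, which shares its seed, gave 139 to 174 CPM at 2 months and 139 to 165 at 10 months and was not called. Mir494 and Mir410, the other pair with a shared 5p seed, were called in opposite directions.

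In Q175 mice 12 members rose between 2 and 10 months (18.7% of all tested) and 1 fell, Mir1193 (22.5% of all tested fell). Mir154 rose most, by 0.82 ± 0.06 on the log2 scale, followed by Mir381 (0.58 ± 0.06), Mir410 (0.54 ± 0.06) and Mir541 (0.53 ± 0.06). Mir411, Mir667, Mir329, Mir666, Mir379 and Mir369 rose in Q175 and were not called with age in controls. Of these, Mir411, Mir667, Mir329 and Mir379 were among the 16 whose Q175 effect differed between the ages, and Mir666 and Mir369 were not. Mir485, Mir487b, Mir496a, Mir377, Mir679 and Mir323 fell with age in controls, were not called with age in Q175, and were among the 16.

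**Figure D4:**
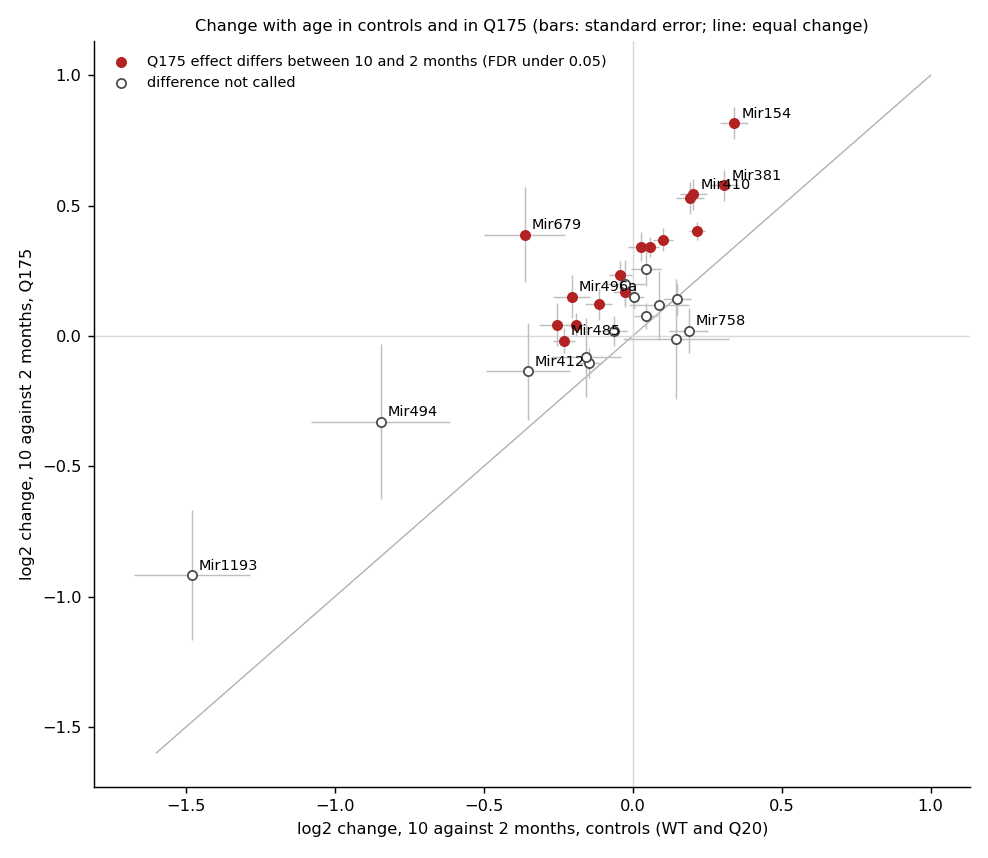
Log2 change from 2 to 10 months of each of the 30 members in controls (horizontal axis) and in Q175 (vertical axis), with standard errors and the line of equal change. Filled points are the 16 members whose Q175 effect differed between the ages, and all lie above the line, from Mir679 on the left to Mir154 at the top right.

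Between sexes 2 members were called over all lines and ages, against 7.27% of all tested. Mir666 was lower in females (log2 difference -0.11 ± 0.02, FDR = 0.000123) and Mir495, known to repress BDNF in human cells, was higher (0.06 ± 0.02, FDR = 0.0307). No member's Q175 effect differed between the sexes at 10 months by edgeR or DESeq2, and by edgeR none had an unadjusted p under 0.05. No member differed between Q20 and WT at 10 months by either tool, where again none had an unadjusted p under 0.05.

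After group and sex means were subtracted, log2 CPM of the members varied together only in part. Over 157 libraries the median Pearson r of the 253 pairs of members with a mean count of at least 100 was 0.11, against 0.02 for all microRNAs of that depth. Pairs ranged from -0.36 to 0.63. The highest values were those of Mir376c with Mir369 (0.63) and of Mir411 with Mir381 (0.62), Mir410 (0.61) and Mir300 (0.60). The lowest were Mir496a with Mir541 (-0.36) and Mir758 with Mir381 (-0.36). The first of these pairs held members that both rose in Q175. All values come from the same libraries and scaling factors, and serve as a description.

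**Figure D5:**
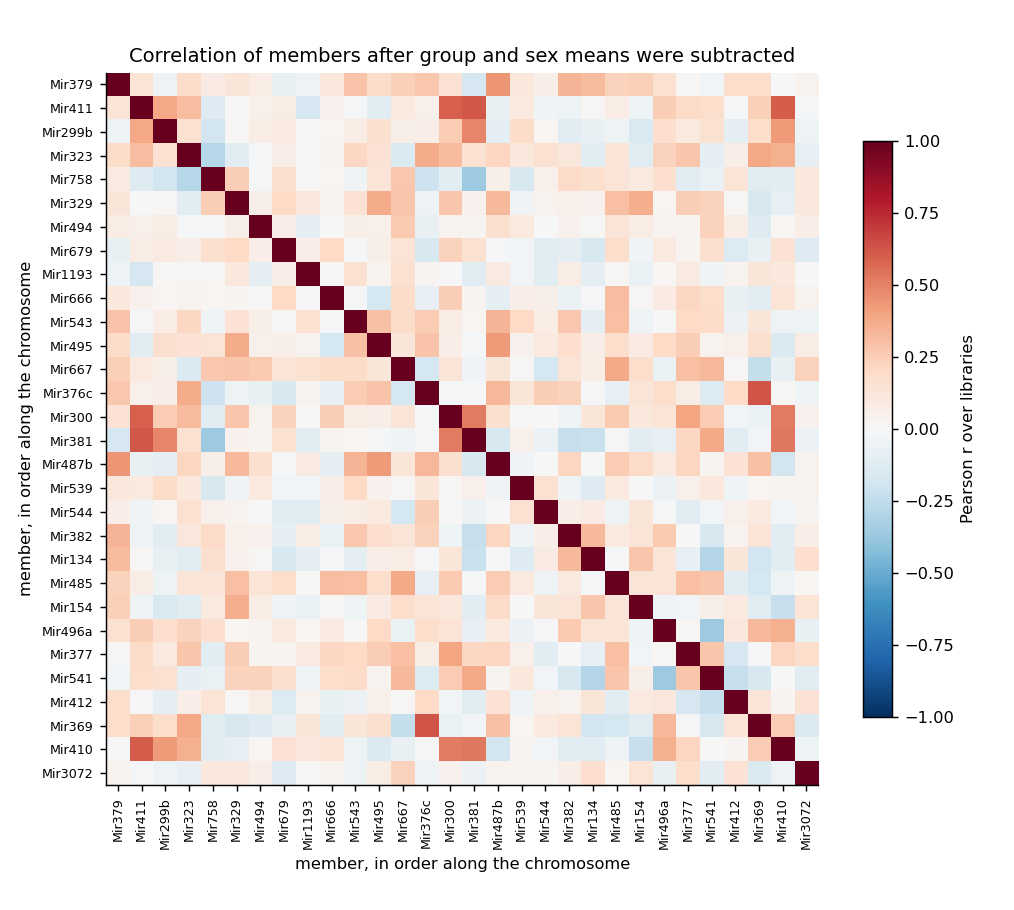
Pearson r (colour) between each pair of the 30 members over 157 libraries, in order along the chromosome on both axes, after group and sex means were subtracted from log2 CPM. Mir411, Mir300, Mir381 and Mir410 stand out with values of 0.52 to 0.62 among each other, while most other pairs lie near 0.

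Other microRNAs of the domain moved in Q175 as well. Of 14 tested outside the cluster, 9 rose at 6 months, and at 10 months 9 rose and 1 fell. Mir127, encoded opposite Rtl1, rose by 0.26 ± 0.03 at 10 months, and Mir1247, near Dio3, fell by 0.51 on the log2 scale. A further 3 annotated features lie opposite listed microRNAs that were not analysed here. These are Gm25750 opposite Mir380, Gm25252 opposite Mir376a and Gm24321 opposite Mir409. They rose at 10 months by 0.29 ± 0.06, 0.41 ± 0.05 and 0.14 ± 0.05 on the log2 scale, and which strand their reads came from cannot be told apart.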

How the data were processed

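Total RNA was extracted with the miRNeasy kit, and clipped small RNA reads of a strand-specific protocol were, per the study's methods, mapped by STAR (mm10) and assigned to genes by HTSeq. CASAVA 1.8.2 is named in the submitters' processing notes. In the deposited count table the authors give estimated counts (expected counts) per Ensembl transcript, not normalized, which were rounded to whole numbers here. A second deposited table holds RPKM and served as an alternative only. No column belonged to other samples (0 columns).

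GENCODE M21 (GRCm38) gave symbols and positions for 1228 of 1626 features. A library was left out where its Z.k, the standardized connectivity among libraries of one age, fell below -5. This removed Q111 M3, Q92 M4, Q92 M2, Q80 M2, Q80 F1, Q20 M4, WT M1 and WT F3 of 2 months and Q20 F3 of 10 months. The tests were run with edgeR 4.0.16 (quasi-likelihood, TMM) in R 4.3.3 over the 454 features that passed filterByExpr, two-sided, with sex and library series as covariates and all lines of an age in 1 fit. Tests of age and sex used all 157 libraries in 1 fit. WT was set to a Q of 7. SE is the absolute log2 fold change over the square root of F. Levels are CPM with TMM factors, and their log2 used a prior count of 2. Intervals and depth limits cover the spread between these libraries only. DESeq2 1.42.0 and limma 3.58.1 (log2 of RPKM plus a pseudocount of 1) gave alternatives, and others changed the scaling, filter, controls and covariates.

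The members, microRNA lists and tests were chosen with earlier results of these data known. Named were the first and last member, the 5 with most counts, the 10 with the largest mean log2 fold change among those called in Q175 at both ages, those below 0 at both, and those called in any other comparison. The largest changes with age were also named. Other members were named after their values were seen.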

Additional observations from a re-analysis of the deposited data

Results flagged for a closer look

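The Q175 effect differed between 10 and 2 months for 16 members by the edgeR test of that difference (FDR under 0.05), each more positive at 10 months. The differences on the log2 scale were 0.75 for Mir679, 0.48 for Mir154, 0.36 for Mir496a, 0.34 for Mir410, 0.34 for Mir541, 0.32 for Mir667, 0.30 for Mir377 and 0.28 for Mir411. They were 0.28 for Mir329, 0.27 for Mir381, 0.27 for Mir376c, 0.24 for Mir323, 0.23 for Mir487b, 0.21 for Mir485, 0.20 for Mir379 and 0.19 for Mir300. Mir679 has a mean count of 16.2 per library and was not called in Q175 at 2 or at 10 months.

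Single libraries stood apart from their group by Dixon's criterion in 6 of 61 groups examined, where chance gives about 1 in 20. In Q175 at 10 months library F1 was high, with 2.76% of its counts in the cluster and 6355 CPM of Mir411, and library F2 was high for Mir667 at 189 CPM. In WT at 10 months library M1 was low for Mir329 (78.9 CPM) and Mir376c (279 CPM). In Q140 at 10 months library F1 was low for Mir541 (1304 CPM). Without Q175 F1 19 members were higher at 10 months, and without Q175 F2 or WT M1 18.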

How the results depend on the processing

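The counts of members higher in Q175 were 17 to 20 at 10 months and 12 to 17 at 6 months over all alternatives other than leaving out a library, and no direction reversed. Leaving out 1 library gave 18 to 19 and 16 to 17. The count over Q80, Q92, Q111 and Q140 (7, all in Q140 at 10 months) was 11 with TMM factors from outside the domain, 4 with no filter on low counts, and 0 with the line and its controls alone in the fit, and ran from 0 (without Q140 M3) to 8 on leaving out a library. The count for Q without Q175 (5) was 8 with TMM factors from outside the domain and 3 with no filter. With lane as a covariate 1 member's Q175 effect differed between 10 and 6 months (0 without lane), and 1 member differed between sexes (2 without lane). With WT alone as control 9 members changed between 2 and 10 months (18 with both controls). The cause of these changes was not tested. Of 348 values of single named members, 345 kept their call. The exceptions were Mir667 (0.17) and Mir381 (0.21) at 6 months with no filter, and Mir376c (0.08) at 6 months without the series term.

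Equal replicate numbers marked no shared animal, and the deviations of 35 same-numbered pairs of Q175 and control libraries had correlations of -0.32 to 0.38 (median 0.06, 11 of them above 0.1). With a replicate block 18 members were higher in Q175 at 10 months and 17 at 6 months. The count over Q80 to Q140 was 2, that for Q without Q175 was 3, and that of age in controls was 17. The replicate block did not move any other count by over 1.5 times. The 7 members with a mean count under 100 had standard errors of 0.10 to 0.28 at 10 months, against 0.02 to 0.09 for the others.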
